A study of Homo sapiens with 8 samples.

Results

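The histone genes described here were those whose symbols begin with H1-, H2AC, H2BC, H3C or H4C, or in older naming with HIST1H, HIST2H or HIST3H, together with the variants H2AZ1, H2AZ2, H2AX, H3-3A, H3-3B, MACROH2A1 and MACROH2A2. The rule found 106 of the 60652 gene rows. They comprised 9 polyadenylated variants, 23 pseudogenes, 2 germline linker histone genes (H1-7 and H1-8), 1 antisense RNA, H1-10-AS1, and 71 others. These 71, mainly genes of the replication-dependent clusters, are called cluster genes here. They were not sorted by tissue, so any other germline genes are counted among them. Of the 71 cluster genes, 53 lie on chromosome 6 and 14 on chromosome 1. Apart from these lie H4C16 on chromosome 12 and H2BC12L on chromosome 21. A further 2, H3C2 and H3C3, have no position in GENCODE release 29. By family, the cluster genes were 6 H1, 17 H2A, 19 H2B, 14 H3 and 15 H4 genes. For 7 of the 106 only the older name met the rule.

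The measurements came from 8 RNA-seq libraries of HEK293T, a human line of embryonic kidney origin, in the form of a reporter line in which GFP is placed behind the TRE3G promoter. Every group received plasmids for an activator, a Cas protein fused to the VPR activation domains, and for a guide RNA. After 2 days the mCherry- and BFP-positive cells were collected on a sorter. With dCasMINI-VPR the groups were sgTet (the Tet guide) and sgNT (the non-targeting guide), and with dCas12a-VPR they were crTet and crNT, with 2 libraries each. The non-targeting groups therefore carry the activator too, there are no cells without one, and transfection was transient. No source used here gives the sequence of either guide. The labels do not say whether the 2 libraries of a group came from separate cultures, so p-values measure only the spread between libraries, which may be technical.

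Gene reads came to between 17474404 and 21081942 a library, at which 3 reads, used as a floor, correspond to 0.145 to 0.170 CPM (counts scaled to 1000000 per library). The reporter transcript EGFP had 920.1 and 1094 CPM in sgTet against 3.228 and 4.425 CPM in sgNT, and 804.2 and 707.8 CPM in crTet against 2.767 and 2.659 CPM in crNT. All 7 of the listed HEK293T markers (KRT8, KRT18, VIM, NEFM, INA, PAX2 and LHX1) had reads in every library. Of 8 markers of other cells, the blood genes PTPRC and HBB had no read in any library, and COL1A1 (6204 reads) and COL3A1 (218) were the ones that passed the filter on low counts. The summed level of all 8 markers of other cells was 41.4 to 45.2 CPM in sgTet, 33.8 to 40.4 in sgNT, 44.3 to 46.3 in crTet and 37.9 to 39.5 in crNT. The share of reads that found no place in the genome was 14.4% and 12.7% in crNT, against 8.32% to 9.62% in the other 6 libraries. Replicates were farthest apart in sgTet, where chi-square per degree of freedom over genes was 13.9, against 3.93 in sgNT, 6.93 in crTet and 3.19 in crNT.

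Histones package DNA into nucleosomes, in which H2A, H2B, H3 and H4 form the core and H1 binds the linker. Cluster genes are transcribed in S phase, when new DNA has to be packaged, and their mRNAs usually end shortly after a stem-loop instead of in a poly(A) tail. The stem-loop is bound by SLBP, and the pre-mRNA is cut just past it with the help of U7 small nuclear RNA. Variants such as H2A.Z and H3.3 are made through the whole cell cycle from ordinary polyadenylated mRNAs. Here mRNA was pulled out of total RNA with oligo(dT) beads, which bind poly(A) tails, before fragmentation, so a cluster gene is read through any polyadenylated form it has and through what the beads carry over.

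The stem-loop was searched for in the 206694 transcripts of GENCODE 29 and found in 113 of them (0.0547%), among which were transcripts of 36 of the 106 histone genes. These genes carry 7 versions of the 16 bases. The version shared by most genes (18) is shown first, followed by versions found in 5 genes each, in the 3 genes H4C9, H4C14 and H4C15, and in H3C6 and H2AX alone. The version not shown occurs in 3 genes. Capitals mark the stem-loop and lower case the transcript bases on either side, which come from the GENCODE 29 transcripts (hg38) and are written with T for U. Positions are those of the capitals.
H2AC25, chr1:228457369-228457384, minus strand: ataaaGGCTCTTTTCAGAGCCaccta
H2BC5, chr6:26158587-26158602, plus strand: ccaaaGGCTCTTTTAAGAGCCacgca
H4C8, chr6:26285131-26285146, minus strand: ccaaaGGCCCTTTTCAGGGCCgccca
H4C9, chr6:27139654-27139669, plus strand: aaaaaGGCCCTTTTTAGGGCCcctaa
H3C6, chr6:26225596-26225611, plus strand: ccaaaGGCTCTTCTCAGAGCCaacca
H2AX, chr11:119094898-119094913, minus strand: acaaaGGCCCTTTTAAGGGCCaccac

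All 5 genes with the H4C8 version, and all 3 with the H4C9 version, encode H4. The version of H2BC5 was found in H2B and H3 genes. Among the 71 cluster genes a stem-loop was found in 32, and in 23 of these an annotated transcript runs on for more than 100 bases past it. In 20 of the 32 a single annotated transcript holds the stem-loop and, in its last 40 bases, AATAAA or ATTAAA, the usual poly(A) signals. Of the 9 variants, all 9 have such a signal in an annotated transcript and only H2AX has a stem-loop as well. No match was found in 37 cluster genes, many of whose GENCODE 29 models hold coding sequence alone, so the absence concerns those models only.

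Promoters are shown for the cluster genes H2BC12, H4C9 and H1-2, which are among the 4 most read, and for the variant H2AZ1. They are single examples and need not be typical of their families. The 150 bases before each RefSeq gene start (GRCh38.p14) are given on the gene's strand, with motif matches on either strand in capitals. The motifs are the TATA box TATAAA, the CCAAT box (ATTGG on the other strand), the octamer ATTTGCAT and the H1 box AAACACA, and no match printed overlaps another.
H2BC12, chr6:27146859-27147008, minus strand: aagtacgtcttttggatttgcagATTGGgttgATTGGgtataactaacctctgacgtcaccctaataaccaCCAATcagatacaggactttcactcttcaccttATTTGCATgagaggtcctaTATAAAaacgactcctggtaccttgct
H4C9, chr6:27139132-27139281, plus strand: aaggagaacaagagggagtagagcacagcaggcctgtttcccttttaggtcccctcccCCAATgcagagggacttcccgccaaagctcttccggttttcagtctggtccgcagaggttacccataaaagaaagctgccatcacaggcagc
H1-2, chr6:26056471-26056620, minus strand: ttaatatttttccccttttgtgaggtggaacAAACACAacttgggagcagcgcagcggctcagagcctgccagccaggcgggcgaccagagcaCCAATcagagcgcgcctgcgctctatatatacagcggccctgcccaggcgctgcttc
H2AZ1, chr4:99950276-99950425, minus strand: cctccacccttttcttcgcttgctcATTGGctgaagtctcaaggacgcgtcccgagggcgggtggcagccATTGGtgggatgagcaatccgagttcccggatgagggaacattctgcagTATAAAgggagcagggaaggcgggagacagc

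A RefSeq promoter of 300 bases, 250 before and 50 after the start, was found for 75 of the 106 genes. CCAAT occurred in all 6 H1, all 16 H2A, all 18 H2B and all 12 H3 cluster promoters, against 39.7% of the 27305 genes of the table. It occurred in only 3 of 13 H4 promoters, that of H4C9 among them. The octamer ATTTGCAT, the binding sequence of POU2F1, occurred in 14 of 18 H2B and 11 of 16 H2A promoters, in 1 of 12 H3 promoters and in none of the H1 or H4 promoters, against 2.20% of all genes. AAACACA, known as the H1 box, occurred in all 6 H1 promoters and in 1 of 16 H2A, 2 of 12 H3 and none of the H2B and H4 promoters, against 6.90% of all genes. TATAAA occurred in 3 of 6 H1, 12 of 16 H2A, 12 of 18 H2B, 10 of 12 H3 and 7 of 13 H4 promoters, against 14.0% of all genes. Both strands were searched, and a match describes the letters alone.

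The cluster genes together gave far fewer reads than the variants in every library. Over the 8 libraries the 71 cluster genes held 40473 reads. Their share of the reads of both classes was 8.05% and 7.15% in sgTet, 7.40% and 8.17% in sgNT, 7.10% and 7.16% in crTet, and 7.59% and 7.32% in crNT. The 95% Wilson intervals of these shares, which cover counting error alone, ran from 6.91% at their lowest bound to 8.39% at their highest. Both classes together made up 0.325% to 0.356% of gene reads.

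In summed level the cluster genes came to 267.1 and 250.5 CPM in sgTet, 262 and 284 CPM in sgNT, 239.6 and 256 CPM in crTet, and 253 and 248 CPM in crNT. The 4 groups overlapped, apart from sgNT, whose lower library still lay above both crTet and both crNT libraries. The 9 variants summed to 3052 and 3255 CPM in sgTet, 3282 and 3188 CPM in sgNT, 3133 and 3324 CPM in crTet, and 3079 and 3138 CPM in crNT. Both sgNT libraries lay above both crNT libraries here too, and the other groups overlapped. In RNA from many cells, fewer cells in S phase and less histone mRNA per cell cannot be told apart.

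Every variant had more reads than every cluster gene. The variant with the fewest reads, MACROH2A2, had 16829, and the cluster gene with the most, H2BC12, had 10143. Of the cluster genes 11 had no read in any library, 22 averaged at least 1 CPM, and 33 passed the filter on low counts, as did all 9 variants, 2 of the 23 pseudogenes and H1-10-AS1. A gene can pass this filter through a single group in which it is high.

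**Figure D1:**
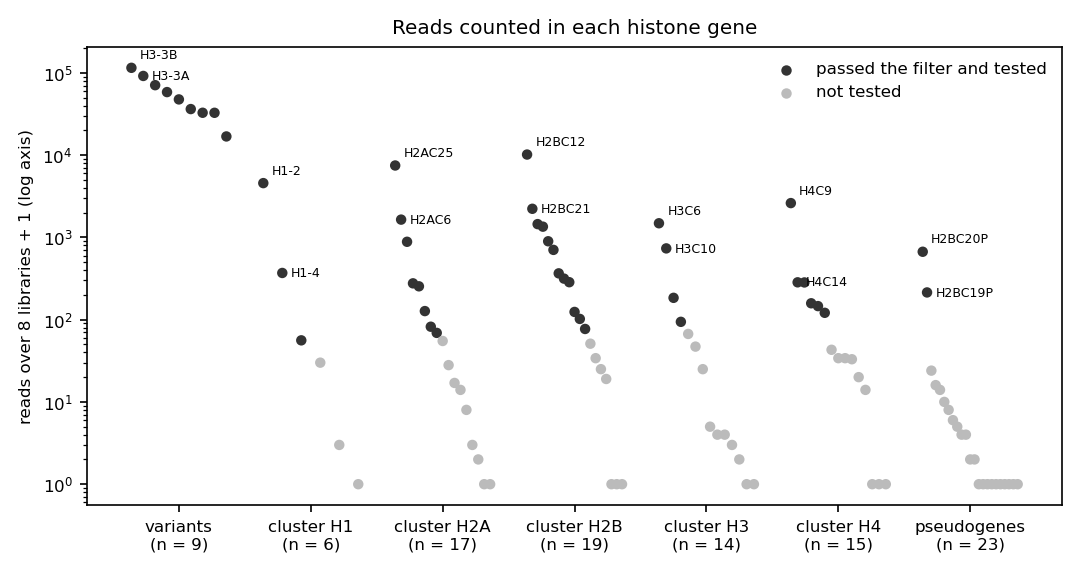
Reads of each histone gene summed over the 8 libraries, plus 1, on a log axis, by class and family, with tested genes dark and untested genes pale. All 9 variants lie above 10143, the total of the highest cluster gene, and 11 cluster genes have no read.

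A few cluster genes held most of the reads of their class. H2BC12, H2AC25, H1-2, H4C9 and H2BC21, with 10143, 7465, 4559, 2606 and 2222 reads, held 66.7% of all cluster reads, and the 12 most-read genes held 87.5%. The 7 cluster genes listed as having known polyadenylated forms (H1-2, H2AC6, H2BC4, H2BC5, H2BC12, H2BC21 and H4C8) held 50.9%. None of these 7 was called in the comparisons described further on, which called between 0.795% and 10.0% of all genes tested. The median cluster gene had 50 reads. By annotated end, the median was 283 reads for the 23 genes with a transcript of more than 100 bases past the stem-loop. It was 54 for the 9 genes whose transcripts with the loop stop sooner, and 24 for the 37 genes with no annotated loop. The annotated lengths differ between these sets, and per kilobase of exon the medians were 0.821, 0.62 and 0.333 CPM in the same order. The 3 sets overlapped widely, and the genes without an annotated loop include H2BC12 and H1-2.

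**Figure D2:**
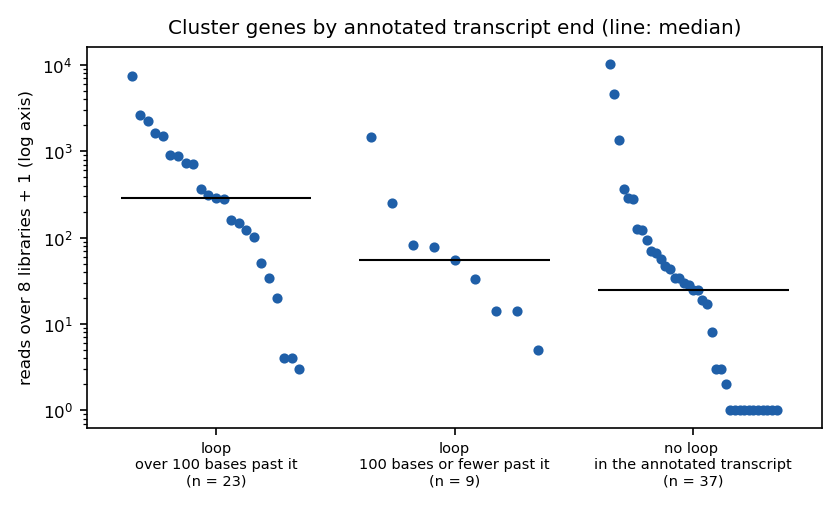
Reads of each cluster gene over the 8 libraries, plus 1, on a log axis, by what the GENCODE 29 transcript shows past the stem-loop; lines are medians. The medians are 283, 54 and 24 reads, and the 2 most-read genes without an annotated loop, H2BC12 and H1-2, lie among the highest of all. Reads are not scaled to transcript length, which differs between the sets.

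Per kilobase of exon, the level of H2AZ1 averaged 195 CPM, that of H2AX 187 and that of H3-3A 185. Their ranges over the 8 libraries (168 to 226, 164 to 199 and 161 to 199.7) overlapped. H1-10 averaged 137, H3-3B 119, MACROH2A2 54.0, H2AZ2 43.7 and MACROH2A1 13.0 CPM per kilobase. H3-3A and H3-3B, which encode the same H3.3 protein, did not overlap on this scale (161 to 199.7 against 112 to 124), although H3-3B has the higher CPM. On the same scale H2BC12 averaged 169, H2AC25 53.0, H1-2 45.1 and H4C9 12.8 CPM per kilobase, while the median cluster gene stood at 0.532 and the median variant at 137. The lengths are those of GENCODE 29, in which H2BC12 and H1-2 have a coding length only, and a longer transcript would lower their values. In GENCODE 29 no gene overlaps H2BC12, yet the column that ignores strand kept 60.9% of its reads. The annotation counted therefore differs at this place from the one that gave the length. RefSeq gives H2BC12 a longer span, so its values per kilobase may be too high. A gene's length covers the exons of all its annotated transcripts, also those that retain introns. For MACROH2A1 it is 17730 bases, against 2789 in its longest protein-coding transcript, and for H3-3B 6134 against 2705. Shorter lengths would raise such values, so the order of the genes and the gap between H3-3A and H3-3B depend on the lengths used. The column that ignores strand also understates genes that overlap others. With the strand columns summed, in which a read in an overlap can count for either gene, the level was 319 CPM per kilobase for H2AZ1, 319 for H1-10, 278 for H2BC12 and 44.9 for H4C9, while H3-3A stayed at 185 and H2AX at 187. The place of the first 4 in this order is therefore uncertain.

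Among the linker histones, the cluster gene H1-2 had 28 and 32.1 CPM in sgTet, 25.1 and 31.2 in sgNT, 32.5 and 32.7 in crTet, and 24.6 and 25.5 in crNT. Its crTet libraries were above both crNT libraries. H1-4 had 1.80 and 2.42 CPM in sgTet, 2.05 and 4.54 in sgNT, 2.20 and 2.94 in crTet, and 0.974 and 2.02 in crNT. H1-3 had 0.650 and 0.194 CPM in sgTet, 0.205 and 0.567 in sgNT, 0.390 and 0.207 in crTet, and 0.307 and 0.296 in crNT, near the floor of 3 reads throughout.

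In the H2A family, whose protein pairs with H2B, H2AC25 led with 43.3 and 46.4 CPM in sgTet, 51.8 and 48.8 in sgNT, 37.6 and 48.3 in crTet, and 51.6 and 52.1 in crNT. Both Tet groups lay below their own non-targeting group without overlap. With 2 libraries a group, such separation is common for unaffected genes too, here and in the other families and variants. Its share over all genes was not counted. H2AC6 had 13.6 and 12.2 CPM in sgTet, 7.53 and 9.87 in sgNT, 8.49 and 10.8 in crTet, and 11.3 and 9.45 in crNT. H2AC11 had 6.40 and 4.69 CPM in sgTet, 6.56 and 6.30 in sgNT, 5.17 and 4.70 in crTet, and 5.74 and 5.37 in crNT. The sgTet libraries were the highest for H2AC6, while the guide groups of H2AC11 overlapped with dCasMINI-VPR.

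In the H2B family, H2BC12 had 65.2 and 54.2 CPM in sgTet, 68.2 and 73.1 in sgNT, 68.1 and 62.5 in crTet, and 62.2 and 63.1 in crNT. H2BC21 had 18.0 and 14.7 CPM in sgTet, 11.99 and 16.1 in sgNT, 14.0 and 13.3 in crTet, and 14.5 and 10.5 in crNT. H2BC5 had 9.05 and 9.15 CPM in sgTet, 10.3 and 9.81 in sgNT, 8.93 and 8.003 in crTet, and 8.76 and 9.55 in crNT. The sgTet libraries of H2BC12 and H2BC5 lay below sgNT, and those of H2BC21 overlapped with it.

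In the H3 family, H3C6 had 8.50 and 7.50 CPM in sgTet, 12.9 and 9.64 in sgNT, 7.66 and 8.06 in crTet, and 12.5 and 8.77 in crNT. H3C10 had 4.35 and 4.45 CPM in sgTet, 5.58 and 5.84 in sgNT, 3.61 and 5.27 in crTet, and 3.996 and 4.33 in crNT. H3C2 had 1.25 and 1.02 CPM in sgTet, 1.23 and 1.08 in sgNT, 0.976 and 0.878 in crTet, and 0.974 and 1.87 in crNT. For H3C6 both Tet groups were below their non-targeting groups, and for H3C10 only the dCasMINI-VPR groups were apart.

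In the H4 family, H4C9 had 24.8 and 19.0 CPM in sgTet, 15.8 and 15.7 in sgNT, 13.7 and 15.02 in crTet, and 15.01 and 13.3 in crNT. H4C14 had 1.70 and 2.66 CPM in sgTet, 2.15 and 2.10 in sgNT, 1.17 and 1.08 in crTet, and 2.00 and 1.53 in crNT. H4C8 had 2.35 and 2.18 CPM in sgTet, 2.20 and 1.76 in sgNT, 1.32 and 1.34 in crTet, and 1.49 and 1.67 in crNT. For H4C8 and H4C9 all 4 dCasMINI-VPR libraries were above all 4 dCas12a-VPR libraries. H4C9 lies inside the span that RefSeq gives for H2BC12 (GRCh38.p14 chromosome 6, 27138293 to 27146858), and the column that ignores strand kept 28.5% of the reads that the strand columns give to H4C9 and 60.9% of those of H2BC12. Near-identical copies such as H4C14 and H4C15, H3C14 and H3C15, or H2AC18 and H2AC19 are uncertain, since reads that map to several places are not counted.

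Of the variants that did not pass any of the tests, H3-3B had the highest CPM. H3-3B, which encodes replacement H3.3, had 726 and 727 CPM in sgTet, 759.9 and 725 in sgNT, 689.5 and 716 in crTet, and 753 and 739.7 in crNT. H3-3A, the other gene for H3.3, had 586 and 628 CPM in sgTet, 618 and 611 in sgNT, 545 and 609 in crTet, and 506 and 547 in crNT. H2AX, the variant phosphorylated at DNA breaks, had 296 and 321 CPM in sgTet, 310.3 and 303 in sgNT, 322 and 302 in crTet, and 264 and 291 in crNT. H3-3A and H2AX were lowest in 1 crNT library.

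H2AZ2, the second gene for H2A.Z, had 209 and 207 CPM in sgTet, 216 and 217 in sgNT, 194 and 212 in crTet, and 199 and 206 in crNT. MACROH2A1, a variant with a large macro domain found on the inactive X and silenced chromatin, had 232 and 240.1 CPM in sgTet, 238 and 221 in sgNT, 228 and 248.6 in crTet, and 216 and 215 in crNT. MACROH2A2, its paralog, had 86.4 and 108 CPM in sgTet, 116 and 119 in sgNT, 109 and 109.5 in crTet, and 98.3 and 110.2 in crNT. For MACROH2A2 the sgTet libraries were below both sgNT libraries, 1 of them the lowest of all 8.

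For dCasMINI-VPR, the sgTet libraries were set against sgNT to read the effect of the Tet guide, in an edgeR model of all 8 libraries with p-values adjusted over the 16606 genes tested. Of the 45 histone genes tested 1 fell and none rose, in a comparison that called 0.795% of all genes tested (0.47% higher, 0.325% lower). Without sgNT replicate 1 or 2 the count was 0, and without sgTet replicate 2, which leaves sgTet with 1 library, it was 5.

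Of the 33 cluster genes tested 14 had a fold change above 0 and 19 below, and their median was -0.10, against 0.00 for all genes tested. None was called by edgeR. An unadjusted p under 0.05 was found for 7 of the 33, against 2046 of all 16606 genes tested. DESeq2 gave the same count of 1 among all histone genes tested. H2AC12, named because of its values, came nearest among the cluster genes (-2.41 ± 0.72, adjusted p = 0.113). It had 0.250 and 0.339 CPM in sgTet, 1.44 and 1.76 in sgNT, 0.390 and 1.45 in crTet, and 0.256 and 0.689 in crNT. H4C9 (0.47 ± 0.15, adjusted p = 0.150), H2AC6 (0.57 ± 0.19, 0.160), MACROH2A2 (-0.28 ± 0.09, 0.160) and H2AZ1 (0.20 ± 0.07, 0.237) did not pass.

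For dCas12a-VPR, the crTet libraries were set against crNT in the same model. Of the 45 histone genes tested 1 rose, H1-10, and none fell, in a comparison that called 6.32% of all genes tested (3.56% higher, 2.75% lower). H1-10 (ENSG00000184897.6, hg38 chromosome 3, 129314771 to 129316277, minus strand) encodes the linker histone H1.X. It had 175 and 209.9 CPM in sgTet, 207 and 212 in sgNT, 226 and 239.6 in crTet, and 202 and 188 in crNT. Both crTet libraries were above all 6 others. It averaged 233 ± 9.77 CPM in crTet and 195 ± 9.83 CPM in crNT (SD, n = 2 each), a log2 fold change of 0.26 ± 0.08 (SE, adjusted p = 0.0452).

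The H1-10 call did not hold in 11 of 17 alternatives. It was lost with DESeq2 (adjusted p = 0.0577), with scaling by library size alone (0.0829), and without either sgNT (0.0758 and 0.0734), crTet (0.0823 and 0.282) or crNT library (0.195 and 0.368). With forward- or reverse-strand counts the fold change was 0.14 or 0.15 (adjusted p = 0.476 and 0.351), and with the length and GC trend removed it was -0.03 (0.859). H1-10 overlaps the antisense gene H1FX-AS1, and the counts that ignore strand kept 42.9% of the reads the strand columns give it. The crNT libraries also had the largest shares of unmapped reads, and the part of this in the result was not tested.

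Of the 33 cluster genes, 20 had a fold change above 0 and 13 below, with a median of 0.06 against 0.01 for all genes tested. None was called, and 7 had an unadjusted p under 0.05, against 3287 of all 16606 genes tested. Nearest to the threshold were H2BC15 (-0.83 ± 0.27, adjusted p = 0.0616), named because of its values, and H1-2 (0.38 ± 0.12, adjusted p = 0.0621). For H1-2 the group means were 32.6 ± 0.204 CPM in crTet and 25.1 ± 0.646 CPM in crNT (SD, n = 2 each). H2AC25 (-0.27 ± 0.11, adjusted p = 0.139) and H3C6 (-0.44 ± 0.20, adjusted p = 0.208) did not pass either. Without either sgTet library 5 histone genes were called, and without either sgNT or either crNT library none.

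**Figure D3:**
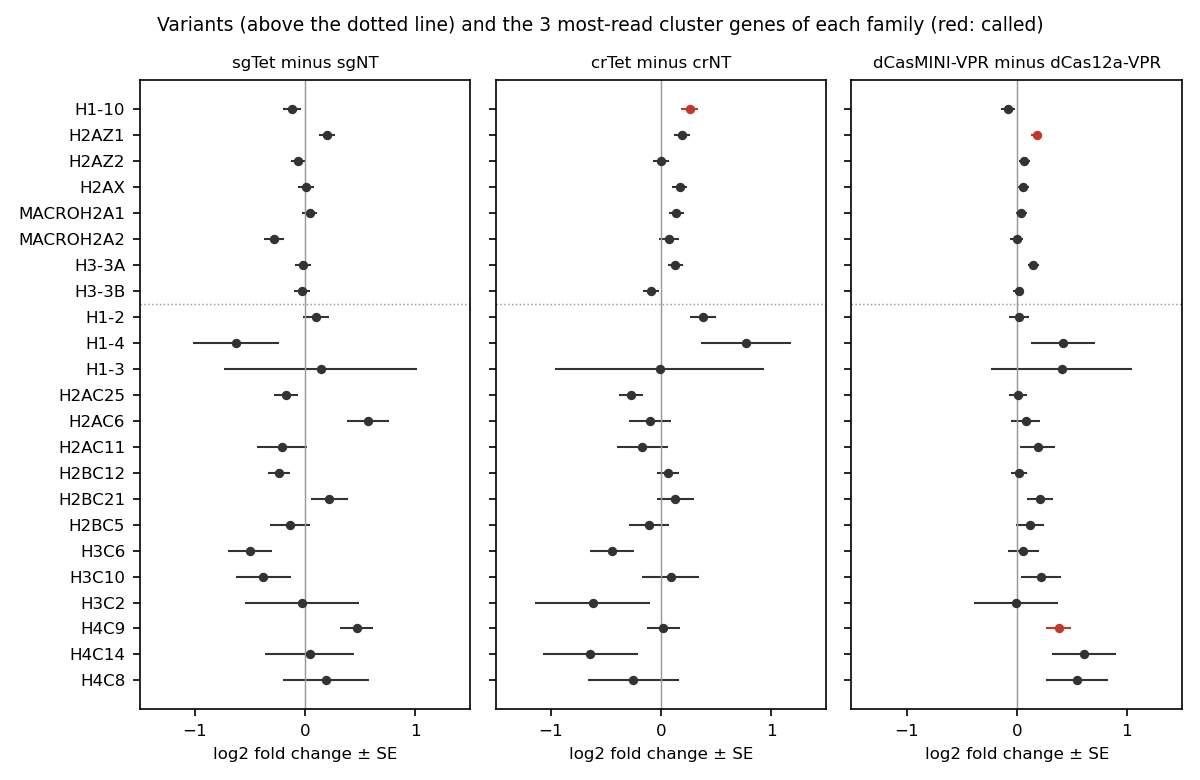
Log2 fold changes ± SE from edgeR for 8 variants and the 3 most-read cluster genes of each family, in the 3 comparisons named above the panels, with called genes in red. H1-10 lies at 0.26 in the panel of dCas12a-VPR, and H2AZ1 and H4C9 at 0.18 and 0.38 in that of the activators.

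Whether the guide effects differ between the activators was tested as the sgTet minus sgNT effect less the crTet minus crNT effect. None of the 45 histone genes passed this test in edgeR, nor in DESeq2, in a comparison that called 1.35% of all genes tested (0.506% higher, 0.843% lower). An unadjusted p under 0.05 was found for 9 of the 45, against 2637 of all 16606 genes tested. The smallest adjusted p was that of H1-10 (-0.38 ± 0.11, adjusted p = 0.0795), followed by H2AC12 (-3.34 ± 1.0, adjusted p = 0.0817). The sgTet libraries of H2AC12 were near the floor of 3 reads. Leaving out sgTet replicate 2 gave 4 histone genes, and leaving out crTet replicate 1 gave 1.

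The activators themselves were compared with the guides averaged, as dCasMINI-VPR minus dCas12a-VPR, with 4 libraries on each side. Of the 45 histone genes tested 2 rose, H2AZ1 and H4C9, and 1 fell, in a comparison that called 10.0% of all genes tested (4.83% higher, 5.2% lower).

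H2AZ1 (ENSG00000164032.12, hg38 chromosome 4, 99948086 to 99950388, minus strand) encodes H2A.Z, the variant found around promoters. It had 498 and 521 CPM in sgTet, 459.8 and 428 in sgNT, 414 and 482 in crTet, and 386 and 397 in crNT. The constructs overlapped through crTet, whose higher library exceeded both sgNT libraries. It averaged 477 ± 40.9 CPM with dCasMINI-VPR and 419.9 ± 43.0 CPM with dCas12a-VPR (SD, n = 4 each), a log2 fold change of 0.18 ± 0.05 (adjusted p = 0.0192). The call was lost with forward- or reverse-strand counts (0.10 and 0.07, adjusted p = 0.314 and 0.513) and without sgNT replicate 1 (0.146), crNT replicate 1 or 2 (0.129 and 0.0685) or crTet replicate 1 (0.145). H2AZ1 overlaps the antisense gene AC097460.1, and the counts that ignore strand kept 61.1% of its reads.

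H4C9 (ENSG00000276180.1, hg38 chromosome 6, 27138588 to 27139881, plus strand), whose stem-loop and promoter are printed above, averaged 18.8 ± 4.25 CPM with dCasMINI-VPR and 14.2 ± 0.919 CPM with dCas12a-VPR (SD, n = 4 each). Most of this averaged difference lay between the Tet groups, and each SD also holds the gap between the 2 guide groups. The log2 fold change was 0.38 ± 0.11 (adjusted p = 0.0184), with the lowest dCasMINI-VPR library at 15.7 CPM just above the highest dCas12a-VPR library at 15.02 CPM. With forward- or reverse-strand counts, which keep the reads shared with the other strand, it was 0.18 or 0.16 and was not called (adjusted p = 0.164 and 0.257). The call was also lost without sgNT replicate 1 or 2 (0.0578 and 0.0590), sgTet replicate 1 (0.101), crNT replicate 2 (0.117) or crTet replicate 1 (0.0700).

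**Figure D4:**
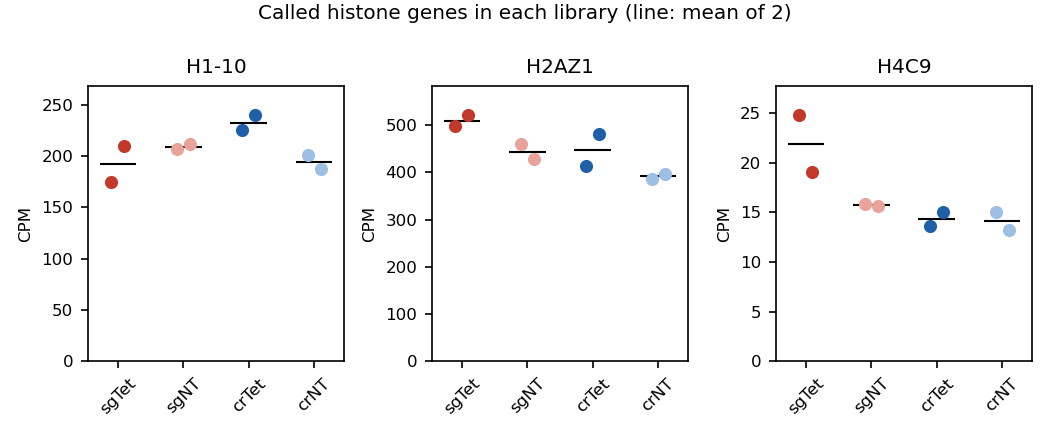
CPM of 3 called histone genes in each library, with bars at the mean of 2. H1-10 lies highest in crTet (226 and 239.6 CPM), and H4C9 is highest in sgTet (24.8 and 19.0 CPM).

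Besides H4C9 no cluster gene was called, and 24 of the 33 cluster genes had a fold change above 0. The median of all 33 was 0.09, against 0.00 for all genes tested. H3-3A (0.15 ± 0.05, adjusted p = 0.0532) and the transcribed pseudogene H2BC20P (0.57 ± 0.19, adjusted p = 0.0509), named because of its values, narrowly missed the threshold. H2BC20P had 4.55 and 5.66 CPM in sgTet, 4.97 and 5.05 in sgNT, 3.66 and 2.69 in crTet, and 3.59 and 3.74 in crNT. Without crNT replicate 2 the count of called histone genes was 1. Of the 7 HEK293T markers 2 rose and 1 fell in this comparison, against 4.83% and 5.2% of all genes tested. The one that fell was the keratin gene KRT8 (-0.71 ± 0.06, adjusted p = 3.84e-10).

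Genes that make and process cluster mRNAs were read from a list of 20, all of which were tested. None of them was called with the dCasMINI-VPR guide, in a comparison that called 0.795% of all genes tested. With that of dCas12a-VPR none rose and 2 fell, against 3.56% and 2.75% of all genes tested. NPAT, which drives histone transcription at the histone locus body, had 31.1 and 25.9 CPM in sgTet, 21.6 and 18.8 in sgNT, 26.6 and 19.3 in crTet, and 20.6 and 19.5 in crNT. Its guide effects of 0.49 ± 0.14 with dCasMINI-VPR (adjusted p = 0.105) and 0.20 ± 0.14 with dCas12a-VPR (adjusted p = 0.490) did not pass. CASP8AP2 (FLASH), a processing factor of the histone locus body, did not pass either (-0.01 and 0.24, adjusted p = 0.985 and 0.201). The genes that fell in crTet were XRN1, a cytoplasmic exonuclease of mRNA decay (-0.38, adjusted p = 0.0307), and ZNF473, a zinc finger protein of the U7 complex (-0.53, adjusted p = 0.0259). The XRN1 call was lost without crNT replicate 1 or 2 or crTet replicate 2 (adjusted p = 0.294, 0.129 and 0.480). That of ZNF473 was lost without crNT replicate 2 or crTet replicate 1 or 2 (0.348, 0.204 and 0.0578).

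SLBP, which binds the stem-loop, had 143 and 145 CPM in sgTet, 148 and 134 in sgNT, 126 and 127 in crTet, and 126 and 129 in crNT. Its libraries separated by activator and not by guide. Averaged over the guides SLBP was 0.17 ± 0.06 higher with dCasMINI-VPR on the log2 scale (adjusted p = 0.0485). This did not hold in 10 of 16 alternatives, among them the leaving out of either sgNT (adjusted p = 0.281 and 0.0677), crNT (0.224 and 0.148) or crTet library (0.108 and 0.114). In this comparison, which called 4.83% of all genes tested higher and 5.2% lower, 3 of the 20 rose and 1 fell. The median was 0.07 against 0.00 for all genes tested. The others were SRRT, a partner of the cap-binding complex (0.24, adjusted p = 0.00234), the helicase UPF1, which acts in histone mRNA decay (0.22, adjusted p = 0.0110), and XRN1, which fell (-0.42, adjusted p = 3.33e-04) and passed in all 16 alternatives. XRN1 averaged 53.4 CPM in sgTet and 63.4 CPM in crTet, and 54.4 CPM in sgNT and 82.4 CPM in crNT. SRRT was not called without sgNT replicate 2 (adjusted p = 0.0522), nor UPF1 without sgNT replicate 2 (0.115), crNT replicate 1 or 2 (0.0560 and 0.0684) or crTet replicate 2 (0.0664).

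Of 22 chaperones that carry histones to DNA, all tested, none was called with the dCasMINI-VPR guide, against 0.795% of all genes tested. With that of dCas12a-VPR 4 rose and none fell, against 3.56% and 2.75% of all genes tested. TONSL, which recognises new H4, had 53.5 and 59.6 CPM in sgTet, 55.2 and 56.8 in sgNT, 53.9 and 48.4 in crTet, and 36.9 and 36.9 in crNT. It rose by 0.47 (adjusted p = 0.00380), with the crNT libraries below all 6 others. CHAF1A, the large subunit of chromatin assembly factor 1, rose by 0.38 (adjusted p = 0.00641). Both calls were lost without crNT replicate 1 or 2 (adjusted p = 0.0959 and 0.0596 for TONSL, 0.0956 and 0.115 for CHAF1A) or crTet replicate 1 (0.0748 and 0.158). NASP, an H3-H4 chaperone (0.24, adjusted p = 0.0413), and CABIN1, a subunit of the HIRA complex (0.26, adjusted p = 0.0389), rose as well. The last 2 calls were lost without any 1 of the crTet, crNT or sgNT libraries, with adjusted p between 0.0662 and 0.356.

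Between the activators 7 of the 22 chaperones rose with dCasMINI-VPR and none fell, against 4.83% and 5.2% of all genes tested. The median of all 22 was 0.12, against 0.00 for all genes tested. CHAF1A (0.35, adjusted p = 1.58e-04) and TONSL (0.37, adjusted p = 4.79e-04) passed in all 16 alternatives, which average the guides. With the Tet guides CHAF1A averaged 114 CPM in sgTet and 108 CPM in crTet, and with the non-targeting guides 128 CPM in sgNT and 83.2 CPM in crNT. For TONSL these means were 56.5 CPM in sgTet and 51.2 CPM in crTet, and 56.0 CPM in sgNT and 36.9 CPM in crNT. For both genes most of the averaged difference lay between the non-targeting groups. SSRP1, a FACT subunit (0.19, adjusted p = 0.00605), did not pass without crNT replicate 1 (0.0684). NAP1L1, an H2A-H2B chaperone (0.18, adjusted p = 0.0210), did not pass without sgNT replicate 1 or 2 (0.128 and 0.0710), sgTet replicate 1 (0.0687), crNT replicate 1 (0.182) or crTet replicate 1 (0.0714).

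Of 20 genes of S phase, all tested, none was called with the dCasMINI-VPR guide, against 0.795% of all genes tested. With that of dCas12a-VPR 2 rose and 2 fell, against 3.56% and 2.75% of all genes tested. Between the activators 9 rose and none fell, against 4.83% and 5.2%. With the dCas12a-VPR guide the rising genes were UHRF1, which reads hemimethylated DNA (0.36, adjusted p = 0.00197), and the cyclin gene CCNE1 (0.37, adjusted p = 0.0454), and the falling ones the licensing factor gene CDC6 (-0.35, adjusted p = 0.00287) and RRM1, of ribonucleotide reductase (-0.23, adjusted p = 0.0451). The calls of UHRF1 and CDC6 were lost without crNT replicate 1 alone (adjusted p = 0.143 and 0.109). Those of CCNE1 and RRM1 were lost without any 1 of the crTet, crNT or sgNT libraries, with adjusted p between 0.0665 and 0.409. With the guides averaged UHRF1 (0.33, adjusted p = 3.02e-05) and CCNE1 (0.47, adjusted p = 9.79e-05) were higher with dCasMINI-VPR in all 16 alternatives. UHRF1 averaged 203 CPM in sgTet and 193 CPM in crTet, but 225 CPM in sgNT and 149.7 CPM in crNT, so most of its difference lay between the non-targeting groups. CCNE1 averaged 37.4 CPM in sgTet and 30.2 CPM in crTet, and 36.4 CPM in sgNT and 23.3 CPM in crNT. MCM4 (0.20, adjusted p = 0.00521) and MCM5 (0.19, adjusted p = 0.0110), of the replicative helicase, did not pass without sgNT replicate 2 (0.0558 and 0.106) or crNT replicate 2 (0.0571 and 0.0916), nor MCM5 without crNT replicate 1 (0.0589). The S phase genes summed to 5454 to 5500 CPM in sgTet, 5460 to 5482 in sgNT, 4855 to 4956 in crTet and 5099 to 5137 in crNT. In crTet this sum was the lowest of the 4 groups, whereas the summed cluster histone level of crTet overlapped that of crNT.

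A list of 15 other RNAs held genes whose RNA is known mainly without a poly(A) tail. Its reads are no measure of what the beads let through, since NEAT1 also has a short polyadenylated form, MALAT1 ends in an encoded stretch rich in A, and reads shared by near-identical copies such as RN7SL1 and RN7SL2 are not counted. Of the 15, 6 were tested, and 7 had no read in any library. RN7SL1, of the signal recognition particle, had 12630 reads over the 8 libraries, MALAT1 3134 and NEAT1 2539, the 3 highest of the list. With the dCas12a-VPR guide 2 of the 6 rose, against 3.56% of all genes tested. NEAT1, the RNA of paraspeckles, had 14.3 and 15.6 CPM in sgTet, 13.5 and 15.7 in sgNT, 25.2 and 17.8 in crTet, and 12.04 and 14.6 in crNT (0.69, adjusted p = 0.00788). This call was lost without crNT replicate 1 (0.242) or crTet replicate 1 (0.257). SNORD3A, the U3 RNA of ribosome production, rose as well (3.05, adjusted p = 3.90e-05). The list summed to 75.5 to 112 CPM in sgTet, 132 to 155 in sgNT, 132 to 172 in crTet and 97.5 to 109.9 in crNT, so that the group order of its sum differed from that of the cluster histones.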

How the data were processed

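Poly(A)-selected RNA was sequenced from 8 libraries. Per the submitters' processing notes STAR and hg38 were used, without a STAR version. The authors deposited raw read counts per gene, with no normalization. The column that ignores strand was used, in which reads where genes overlap are left out. The totals that name no gene, 25.3% to 29.9% of all reads, stayed out. Which annotation release was counted is not stated in the sources. Positions and lengths are from GENCODE release 29, matched by Ensembl ID (104 of 106 genes, 56 with the same version).

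In R 4.3.3, 1 model of 4 group means took the counts of all genes (edgeR 4.0.16, robust quasi-likelihood, TMM factors), after filterByExpr left out genes of low count. Tests were two-sided, and a gene was called where its p, adjusted by Benjamini-Hochberg over the 16606 genes, was under 0.05. The common coefficient of variation was 8.04%, with 4 residual and 28.9 prior degrees of freedom. Where leaving out a library left 1 in its group, its spread was taken from the other groups. CPM are counts per 1000000 of TMM-adjusted library size. The fit was tested on simulated data with known changes. DESeq2 1.42.0, other scalings, the strand columns, a length and GC correction, a replicate block and leaving out each library were alternatives. Replicate numbers did not pair the libraries.

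Genes named are the variants, the 3 cluster genes of each family with the highest mean CPM, up to 12 called members a comparison, NPAT, SLBP and CASP8AP2, and up to 4 called genes a list and comparison by smallest adjusted p. H2AC12, H2BC15, H2BC20P, RN7SL1 and MALAT1 were named after their values were seen. The members and lists were chosen with earlier results of these data known. For 1 histone gene, which the counts and sums include, the values are not reported here. Amino acid sequences were not used here.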

Additional observations from a re-analysis of the deposited data

Results flagged for a closer look

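For 4 genes of the lists the guide effect differed between the activators by edgeR's test of the difference itself, sgTet minus sgNT less crTet minus crNT. That test called 1.35% of all genes tested. CHAF1A had guide effects of -0.16 with dCasMINI-VPR and 0.38 with dCas12a-VPR, a difference of -0.54 ± 0.12 (adjusted p = 0.0177, and 2.55e-04 to 0.213 over 16 alternatives). It had 109 and 119 CPM in sgTet, 122.8 and 132 in sgNT, 115 and 100.5 in crTet, and 84.9 and 81.6 in crNT. UHRF1 differed by -0.51 ± 0.10 (adjusted p = 0.00765, and 8.92e-05 to 0.137), with 198 and 208 CPM in sgTet, 220.1 and 229.7 in sgNT, 193 and 192 in crTet, and 145 and 154 in crNT. CDC6 differed by 0.39 ± 0.10 (adjusted p = 0.0478, and 8.19e-04 to 0.299), with 210.0 and 194 CPM in sgTet, 195 and 197 in sgNT, 174 and 174 in crTet, and 223 and 218 in crNT. SNORD3A differed by -2.38 ± 0.54 (adjusted p = 0.0229, and 1.55e-04 to 0.300 over the 15 that gave one), with 5.35 and 4.50 CPM in sgTet, 1.90 and 4.31 in sgNT, 4.34 and 8.26 in crTet, and 0.666 and 0.837 in crNT. In CHAF1A, UHRF1 and SNORD3A both crNT libraries were the lowest of the 8, and in CDC6 they were the highest. The crNT libraries also had the largest shares of unmapped reads, whose part in these differences was not tested.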

How the results depend on the processing

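The calls of single histone genes were few, so small shifts move the counts. With dCasMINI-VPR the count of 1 held in all alternatives other than the leaving out of a library (0 to 5). With dCas12a-VPR the count of 1 became 0 with library size alone, forward-strand counts, reverse-strand counts or DESeq2, 3 with the 4 libraries of that construct alone, 4 with the length and GC trend removed, and 0 to 5 without a library. There the fold change of H1-10 turned to -0.03 with the length and GC trend removed. For the difference of guide effects the count of 0 became 2 with no filter on low counts, and 0 to 4 without a library. Between the activators the count of 3 became 5 with RLE factors, 5 once length and GC trends were taken out, 1 with forward- or with reverse-strand counts, and 1 to 4 without a library. With a replicate block the count became 2 for dCas12a-VPR and 4 between the activators, and stayed at 1 and 0 in the other comparisons. Same-numbered libraries of different groups did not deviate together (correlations of -0.0311 to 0.0488), so the numbers do not pair them. The summed CPM of the cluster genes stayed between 253.7 and 260.0 without any 1 library and that of the variants between 3161 and 3200. Of the values of single genes under the alternatives, 1145 stayed on their side of the threshold, 216 lost a call and 17 gained one. A further 1 changed direction with a call in either fit. Changes of direction without a call in either fit are counted among the 1145. The causes were not tested. Depth limits the 41 cluster genes under 10 reads a library on average.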
